A study of Homo sapiens with 8 samples.

Results

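The leucine tRNAs with the anticodons CAA and TAA, which read the codons UUG and UUA, were followed through iCLIP libraries of the human enzymes DUS2L and DUS1L. Every deposited crosslink-site record lies on a named tRNA or rRNA reference, and the members were the references whose name gives leucine with one of these anticodons, sense strand only. They comprised 10 of 254 references, of which 6 carried the anticodon CAA and 4 the anticodon TAA. Together they held 506 of the 16258 sense-strand sites found in any library, 236 on tRNA-Leu-CAA and 270 on tRNA-Leu-TAA.

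Dihydrouridine synthases (DUS enzymes) reduce uridines in tRNA to dihydrouridine, a modification that is common in the D loop and lends flexibility to the fold. DUS2L (DUS2) is known for dihydrouridine at a D-loop uridine of many cytosolic tRNAs, and DUS1L is the human homologue of the yeast enzyme that modifies neighbouring D-loop positions. Halogenated uridines such as 5-chlorouridine (5-ClUrd) can be incorporated into RNA and trap a DUS enzyme on its substrate as a covalent adduct. Leucine tRNAs belong to the type II tRNAs, which have a long variable arm, as do serine and selenocysteine tRNAs. Human tRNA-Leu-CAA genes are also known for an intron next to the anticodon, and the wobble cytidine of this tRNA is known to be methylated.

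The study used 8 libraries in 4 groups of 2 biological replicates: DUS2L cells with 5-ClUrd, untreated DUS2L cells, DUS1L cells with 5-ClUrd, and untreated DUS1L cells. The cells were Flp-In T-REx 293, an embryonic kidney line with a single integration site for an inducible transgene, here 3xFLAG-DUS2L or 3xFLAG-DUS1L. All groups, the untreated ones included, received 1 µg/mL tetracycline for 12 h to induce the tagged enzyme. The medium was then replaced by fresh tetracycline medium with 100 µM 5-ClUrd or without it, for a further 12 h. The tagged enzyme is overexpressed from the transgene, beside whatever endogenous enzyme the line has. The files hold only tRNA and rRNA references, so no marker of the cell type was measured. In pooled cells, fewer contacting cells and fewer contacts per cell cannot be told apart.

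Sense-strand counts per library were 370878 and 363024 in DUS2L cells with 5-ClUrd, and 130011 and 172078 in untreated DUS2L cells. They were 824657 and 542521 in DUS1L cells with 5-ClUrd, against 144322 and 7369 in untreated DUS1L cells. The second untreated DUS1L library therefore stands apart in depth: a count of 0 there allows a share of up to 0.0407%, against at most 0.00231% elsewhere. Results that rest on it are given with and without it. Such limits and all intervals below cover counting error only.

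The 10 references trace to 11 genes, since 2 genes share the first CAA reference, and all 11 matched RefSeq annotation of GRCh38.p14. TRL-CAA1-1 (chromosome 6, 28896223 to 28896328), TRL-CAA1-2 (chromosome 6, 28941053 to 28941157), TRL-CAA2-1 (chromosome 6, 27605638 to 27605745), TRL-CAA3-1 (chromosome 6, 27602569 to 27602675) and TRL-CAA4-1 (chromosome 1, 248873855 to 248873960) are the long CAA genes, of 105 to 108 bases. TRL-CAA5-1 (chromosome 11, 9275243 to 9275316) and TRL-CAA6-1 (chromosome 1, 161611946 to 161612029) are shorter, at 74 and 84 bases. The TAA genes are 83 bases each: TRL-TAA1-1 (chromosome 6, 144216547 to 144216629), TRL-TAA2-1 (chromosome 6, 27721119 to 27721201), TRL-TAA3-1 (chromosome 11, 59551755 to 59551837) and TRL-TAA4-1 (chromosome 6, 27230555 to 27230637). Each is annotated as a tRNA gene. How reads that fit several near-identical genes were assigned is not given in the sources used here, so counts of single references within an isoacceptor are uncertain.

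In DUS2L cells tRNA-Leu-CAA fell with 5-ClUrd, while the TAA isoacceptor had no call. In DUS1L cells both shares were higher in each library with 5-ClUrd than in either untreated library, without passing the test. Among treated cells tRNA-Leu-CAA was higher in DUS2L than in DUS1L cells, and tRNA-Leu-TAA was not called.

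tRNA-Leu-CAA took 4.14% and 2.54% of sense counts in DUS2L cells with 5-ClUrd, and 5.89% and 7.06% in untreated DUS2L cells. In DUS1L cells it took 0.415% and 0.293% with 5-ClUrd, and 0.141% and 0% without. The 4 groups did not overlap, and their order was untreated DUS2L, treated DUS2L, treated DUS1L and untreated DUS1L. The mean was 3.34 ± 1.13% in DUS2L cells with 5-ClUrd and 6.47 ± 0.825% in untreated DUS2L cells, and 0.354 ± 0.0864% in DUS1L cells with 5-ClUrd and 0.0707 ± 0.0999% in untreated DUS1L cells (SD, n = 2 each).

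tRNA-Leu-TAA took 2.98% and 3.48% of sense counts in DUS2L cells with 5-ClUrd, and 1.95% and 2.66% in untreated DUS2L cells. In DUS1L cells with 5-ClUrd it took 2.08% in both libraries, against 0.236% and 0.665% in untreated DUS1L cells. Here treated DUS2L stood highest and untreated DUS1L lowest, while untreated DUS2L and treated DUS1L overlapped. The corresponding counts ran to 12640 in a DUS2L library with 5-ClUrd, and were 341 and 49 in the untreated DUS1L libraries.

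**Figure D1:**
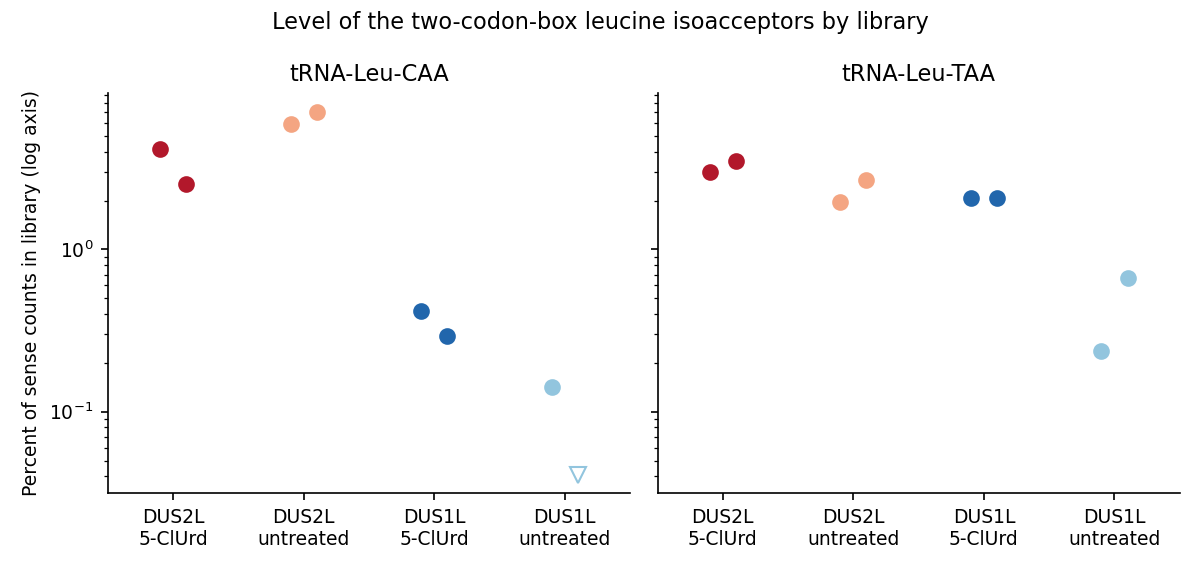
Each point is a library's percentage of sense-strand counts (log axis) on tRNA-Leu-CAA (left) or tRNA-Leu-TAA (right), with the groups along the horizontal axis; the open triangle marks a library with 0 counts, drawn at the share that 3 counts would give. The CAA points fall into 4 separate groups from 7.06% down to 0%, while the TAA points of untreated DUS2L and treated DUS1L cells overlap.

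Changes were tested with edgeR's quasi-likelihood test on summed counts of 55 families (isoacceptors and rRNA units), scaled to total sense counts, p-values being adjusted by Benjamini-Hochberg and called under 0.05. Since each count is a share of its library, a family can change because others do. TMM factors, which centre on the bulk of the families, moved the median log2 change of all families with 5-ClUrd to 0.21 in DUS2L cells, against 0.86 under total scaling, and to 0.32 in DUS1L cells, against 1.35 under total scaling. Changes are therefore also given relative to the median family.

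In DUS2L cells, tRNA-Leu-CAA fell with 5-ClUrd by 0.96 ± 0.28 on the log2 scale (SE, adjusted p = 0.0196, edgeR quasi-likelihood), which lay 1.81 below the median family. This is a comparison in which 76.4% of the 55 families were called, 52.7% higher and 23.6% lower (29 and 13 families, or 19 and 21 with TMM factors). The fall was larger with TMM factors, at -1.60 (adjusted p = 1.22e-05). It missed the threshold without the second untreated DUS2L library (log2 -0.82, adjusted p = 0.149), in one fit of all 8 libraries (adjusted p = 0.275) and where all sites above 500 counts in any library, 24 of them on the members, were left out (-0.49, adjusted p = 0.236).

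The TAA isoacceptor gave 0.49 ± 0.24 (log2, SE) in the same cells and was not called (adjusted p = 0.101, edgeR quasi-likelihood). Its direction turned to -0.16 with TMM factors, and it lay 0.37 below the median family. It gave 0.59 without the first DUS2L library with 5-ClUrd, a fit that leaves 1 treated library. With sites above 500 counts left out it was called, at 0.76 (adjusted p = 0.0434).

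In DUS1L cells, 5-ClUrd over untreated gave 2.03 ± 1.15 for tRNA-Leu-CAA (adjusted p = 0.186) and 2.25 ± 0.75 for tRNA-Leu-TAA (adjusted p = 0.0641; log2 ± SE, edgeR quasi-likelihood). Neither was called among 53 families, of which 24.5% were, 22.6% higher and 1.89% lower (12 and 1 families, or 2 and 8 with TMM factors). They lay 0.68 and 0.90 above the median family. With sites above 500 counts left out the direction of CAA turned to -0.31 (adjusted p = 0.906). Without the second untreated library, TAA gave 3.14 and CAA 1.32. Without the first, TAA gave 1.64 and CAA had 0 untreated counts. Each of these fits leaves 1 untreated library, whose spread is not measured, so only the effect sizes are given.

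One reference carried much of the untreated DUS1L signal of the CAA isoacceptor. CAA-5-1 held 193 of the 204 CAA counts in the first untreated DUS1L library, or 94.6%. In DUS1L cells with 5-ClUrd its share of CAA counts was 11.9% and 12.5%. Without CAA-5-1, an alternative added after its values were seen, tRNA-Leu-CAA rose by 5.54 ± 0.98 (log2, SE) with 5-ClUrd in DUS1L cells (adjusted p = 0.0126, edgeR quasi-likelihood).

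The difference of the 5-ClUrd effects, DUS2L minus DUS1L, was -2.82 ± 1.04 for tRNA-Leu-CAA (adjusted p = 0.0730) and -1.81 ± 0.71 for tRNA-Leu-TAA (adjusted p = 0.0841), as log2 ± SE from edgeR's quasi-likelihood fit of all 8 libraries. Of the 55 families, 29.1% were called for this difference (6 higher and 10 lower, or 0 and 15 with TMM factors). The CAA difference was called without CAA-5-1, at -6.45 (adjusted p = 0.000917). It was -14.21 without the first untreated DUS1L library, where no untreated DUS1L CAA count was left, and -2.28 without the second. With sites above 500 counts left out it was -0.027 (adjusted p = 0.979). The TAA difference was called with TMM factors, at -3.16 (adjusted p = 0.00227). It was -1.16 without the first untreated DUS1L library and -2.65 without the second.

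Among treated cells, DUS2L over DUS1L gave 3.24 ± 0.76 for tRNA-Leu-CAA (log2 ± SE, adjusted p = 0.00639, edgeR quasi-likelihood), in a comparison that called 65.5% of the 55 families. The value for tRNA-Leu-TAA was 0.64 ± 0.49 (adjusted p = 0.281), close to the median family, from which it differed by 0.15. The CAA call was lost without either treated DUS1L library (adjusted p = 0.0594 and 0.0891) and with TMM factors (2.80, adjusted p = 0.0668). In untreated cells both were higher in DUS2L, by 6.06 ± 0.89 for CAA and 2.45 ± 0.53 for TAA (adjusted p = 0.000421 and 0.00318), where 89.1% of families were called, 47.3% higher and 41.8% lower, and the median family was 2.45.

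The other type II tRNAs gave context for these values. In DUS2L cells, 2 of the 3 other leucine isoacceptors (AAG, CAG and TAG) fell with 5-ClUrd and none rose, with a median log2 of -0.68. Of 4 serine isoacceptors 2 rose and 1 fell, with a median of 0.49. In DUS1L cells 2 of the 3 other leucine isoacceptors rose, with a median of 3.83, and 0 of the 4 serine isoacceptors were called by edgeR, 3 of them having an unadjusted p under 0.05. Over all families 52.7% were called higher and 23.6% lower in DUS2L cells, and 22.6% and 1.89% in DUS1L cells. The median over all families was 0.86 in DUS2L cells and 1.35 in DUS1L cells.

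By level over the 8 libraries, the families most like tRNA-Leu-TAA were tRNA-Ser-AGA, tRNA-Ser-CGA and tRNA-Ser-TGA, with Pearson r of 0.982, 0.970 and 0.936 on log2 counts scaled for depth. Those most like tRNA-Leu-CAA were 5S rRNA, tRNA-Gly-GCC and tRNA-Glu-CTC, at 0.959, 0.953 and 0.946. These are descriptions over 4 groups that share libraries and depth. The isoacceptors correlated with each other at 0.633.

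CAA-1 (the reference shared by TRL-CAA1-1 and TRL-CAA1-2), CAA-2-1, CAA-3-1 and CAA-4-1 were abundant in DUS2L cells, lower there with 5-ClUrd, and almost absent from untreated DUS1L cells. CAA-5-1 and CAA-6-1, the short genes, were rare. Counts of references were tested in one fit over all references, added after the data were seen.

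CAA-1 took 1.65% and 0.970% of sense counts in DUS2L cells with 5-ClUrd, against 2.54% and 2.74% in untreated DUS2L cells. CAA-4-1 took 0.503% and 0.312% with 5-ClUrd, against 1.07% and 1.33% without. CAA-2-1 had 0.868% and 0.493% with 5-ClUrd, and 1.06% and 1.33% without. In CAA-3-1 the shares were 1.06% and 0.575% with 5-ClUrd, and 1.15% and 1.56% without. All 4 had both treated DUS2L libraries below both untreated ones. How many of all references separated in this way was not counted, and near-identical references are not independent cases.

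Each of these 4 fell in DUS2L cells (edgeR quasi-likelihood over 230 references, Benjamini-Hochberg adjusted). The log2 changes were -1.01 ± 0.30 for CAA-1, -0.81 ± 0.30 for CAA-2-1, -0.73 ± 0.30 for CAA-3-1 and -1.56 ± 0.31 for CAA-4-1, with adjusted p of 0.00212, 0.0134, 0.0269 and 3.29e-06. In this comparison 60.9% of references were called, 48.7% higher and 12.2% lower, and the median reference was at 1.39. The calls of CAA-1, CAA-2-1 and CAA-3-1 were lost without either untreated DUS2L library (adjusted p between 0.106 and 0.445), while that of CAA-4-1 was kept. Without the second treated library CAA-2-1 and CAA-3-1 also lost theirs (adjusted p = 0.0718 and 0.179). With sites above 500 counts left out these 3 were not called (log2 -0.56, -0.44 and -0.22). The share of CAA counts on CAA-4-1 was 12.2% and 12.3% with 5-ClUrd, against 18.1% and 18.9% without.

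In untreated DUS1L cells these 4 references had 9 counts in all in the first library and 0 in the second, together 0.00624% and 0% of sense counts. With 5-ClUrd they had 2996 and 1380 counts, or 0.363% and 0.254%, above the share that 0 counts allow in either untreated library. The ratio of the pooled shares was 53.9 (95% exact interval 28.4 to 118). By reference the pooled ratios were 67.4 for CAA-1, 39.9 for CAA-2-1, 46.9 for CAA-3-1 and 69.8 for CAA-4-1, resting on 3, 3, 2 and 1 untreated counts, with exact intervals from 12.5 at the lowest to 2761 at the highest bound.

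All 4 rose in DUS1L cells by the fit over 228 references, with fitted log2 changes of 6.05 ± 1.46, 5.31 ± 1.39, 5.50 ± 1.43 and 5.98 ± 1.55 (SE) for CAA-1, CAA-2-1, CAA-3-1 and CAA-4-1 (adjusted p = 0.00120, 0.00215, 0.00212 and 0.00212, edgeR quasi-likelihood). In that fit 37.7% of references were called, 32.9% higher and 4.82% lower (75 and 11, or 31 and 22 with TMM factors). No reference at all was called by edgeR without the first or without the second treated DUS1L library, though 24 and 31 then had an unadjusted p under 0.05, and none with sites above 500 counts left out (78 unadjusted). The lowest adjusted p of the 4 in these fits was 0.0535. Without the first untreated library CAA-4-1 lost its call, and each fit without an untreated library leaves only 1.

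The 5-ClUrd effects on these references differed between the enzymes by -7.03 ± 0.91, -6.10 ± 0.99, -6.22 ± 1.04 and -7.52 ± 1.19 (log2, DUS2L minus DUS1L, SE; adjusted p = 6.66e-05, 0.000324, 0.000379 and 0.000282, edgeR quasi-likelihood). This difference called 17.6% of 244 references, 6.56% higher and 11.1% lower. It was kept for all 4 under the 5 other settings run on references, and stayed negative for all 4 without any one of the 8 libraries. The fitted size rests on the few untreated DUS1L counts.

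CAA-5-1 had 65 and 303 counts in DUS2L cells with 5-ClUrd, 9 and 20 in untreated DUS2L cells, 407 and 199 in DUS1L cells with 5-ClUrd, and 193 and 0 in untreated DUS1L cells. It thus took 0.0175% and 0.0835% of sense counts in treated DUS2L cells, above 0.00692% and 0.0116% in untreated ones. It rose in DUS2L cells by 2.43 ± 0.77 (log2, SE; adjusted p = 0.00398, edgeR quasi-likelihood), a call lost without either untreated library (adjusted p = 0.141 and 0.071) and without the second treated library (0.89, adjusted p = 0.241). In DUS1L cells its pooled share with 5-ClUrd was 0.348 of that without (exact interval 0.296 to 0.412), which rests on the first untreated library. The fitted change was -0.92 ± 0.93 (adjusted p = 0.425), or -1.63 without the second untreated library. Antisense counts lay at positions 74 to 77 of the same reference, 322 and 45 in DUS1L cells with 5-ClUrd and 79 and 0 in untreated DUS1L cells.

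CAA-6-1 took 0.0361% and 0.106% of sense counts in DUS2L cells with 5-ClUrd and 0.0615% and 0.0785% in untreated DUS2L cells, with overlapping groups. In DUS1L cells with 5-ClUrd it took 0.00218% and 0.00166%, against 0.00139% and 0% in untreated ones. Treated DUS2L cells were higher than treated DUS1L cells by 5.17 ± 0.82 (log2, SE; adjusted p = 2.12e-05, edgeR quasi-likelihood), in a comparison that called 64.3% of references, 29.9% higher and 34.4% lower. CAA-1, CAA-2-1, CAA-3-1 and CAA-4-1 were also higher in treated DUS2L cells, by 3.35, 3.14, 3.76 and 3.23, and CAA-5-1 was not called (0.23, adjusted p = 0.838).

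TAA-1-1 was the most counted TAA reference in all 8 libraries. TAA-1-1 took 1.58% and 1.48% of sense counts in DUS2L cells with 5-ClUrd and 1.11% and 1.53% in untreated DUS2L cells. It took 1.23% and 1.17% in DUS1L cells with 5-ClUrd, against 0.111% and 0.624% in untreated DUS1L cells. The DUS2L groups overlapped and the DUS1L groups did not. TAA-1-1 made up 42.6% to 59.05% of TAA counts in all libraries but the second untreated DUS1L library, where it made up 93.9% of 49 counts.

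TAA-4-1 showed the largest DUS2L change of the TAA references. It took 0.171% and 0.265% of sense counts in DUS2L cells with 5-ClUrd, against 0.0423% and 0.0354% in untreated DUS2L cells. In DUS1L cells it took 0.264% and 0.234% with 5-ClUrd, against 0.104% and 0% without. It rose in DUS2L cells by 2.49 ± 0.47 (log2, SE; adjusted p = 1.16e-06, edgeR quasi-likelihood). TAA-3-1 gave 0.81 ± 0.31 there (adjusted p = 0.0165), a call lost without either untreated library or the second treated one (adjusted p = 0.352, 0.147 and 0.0625). With TMM factors the directions of TAA-1-1, TAA-2-1 and TAA-3-1 turned to -0.78, -0.52 and -0.19 against 0.21, 0.48 and 0.81 under total scaling, and CAA-6-1 likewise to -0.995 against 0.02. TAA-1-1 was then called lower (adjusted p = 0.0351). It was also called lower with the DESeq2 Wald test (-0.87, adjusted p = 0.0247), which used DESeq2's own size factors in place of total scaling.

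In DUS1L cells TAA-2-1 and TAA-3-1 rose with 5-ClUrd by 4.43 ± 1.25 and 4.78 ± 1.15 (log2, SE; adjusted p = 0.00418 and 0.00120, edgeR quasi-likelihood). The pooled ratios with 5-ClUrd over untreated were 28.5 (exact interval 16.6 to 53.6) for TAA-2-1 and 27.2 (17.7 to 43.9) for TAA-3-1. They were lower for TAA-1-1, at 8.88 (7.74 to 10.2), and for TAA-4-1, at 2.55 (2.16 to 3.02). These pooled ratios rest mainly on the first untreated library, which held 144322 of the 151691 untreated sense counts. The intervals leave out the spread between libraries, which for TAA-1-1 was 0.111% and 0.624% of sense counts without 5-ClUrd. TAA-1-1 was called at 1.78 ± 0.72 (adjusted p = 0.0411) but not with TMM factors (0.88, adjusted p = 0.380), and TAA-4-1 was not called (1.95 ± 0.97, adjusted p = 0.0924). Without the second untreated library, a fit that leaves 1 untreated library, TAA-4-1 gave 1.26. The 5-ClUrd effect differed between the enzymes for TAA-2-1 (-4.14 ± 0.91, adjusted p = 0.00347) and TAA-3-1 (-3.97 ± 0.82, adjusted p = 0.00247), DUS2L minus DUS1L.

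**Figure D2:**
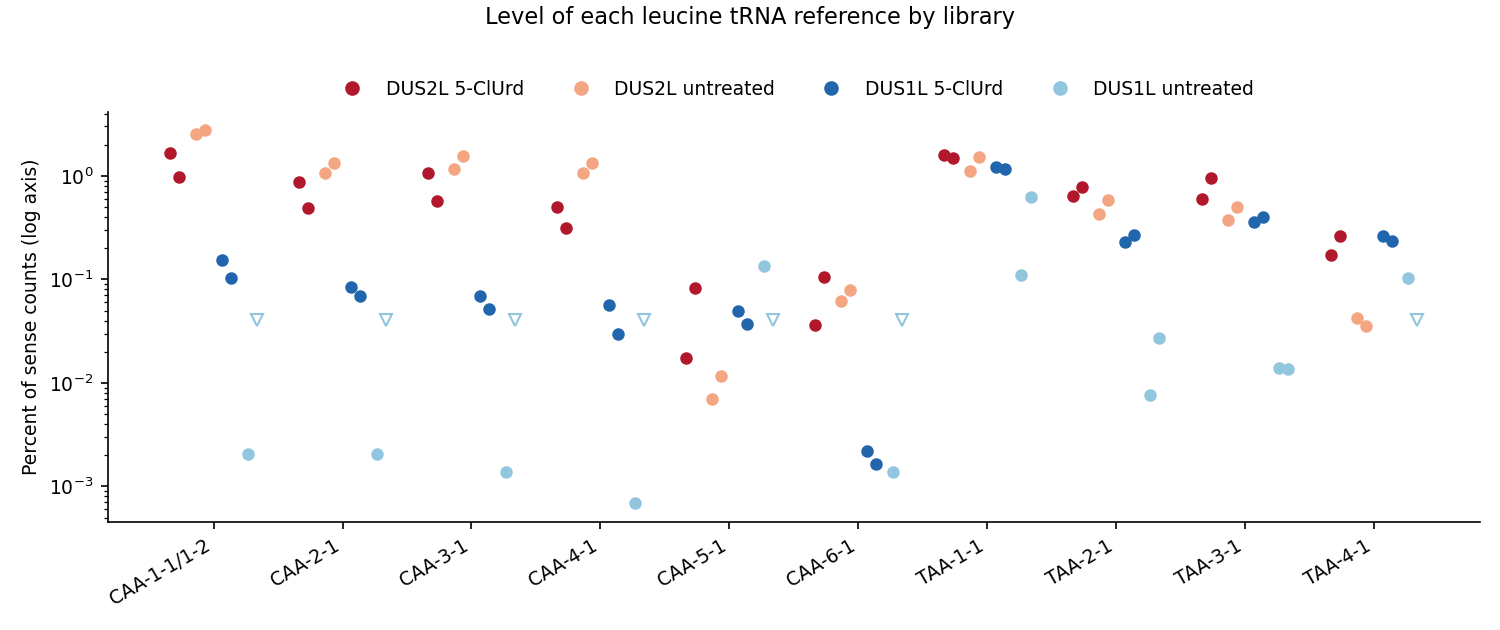
Percentage of sense-strand counts (log axis) on each of the 10 references in every library, colours marking the 4 groups; open triangles are libraries with 0 counts, drawn at the share that 3 counts would give. CAA-1 to CAA-4 sit between 0.312% and 2.74% in DUS2L cells and at or below 0.00208% in the first untreated DUS1L library, while CAA-5-1 sits at 0.134% there.

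**Figure D3:**
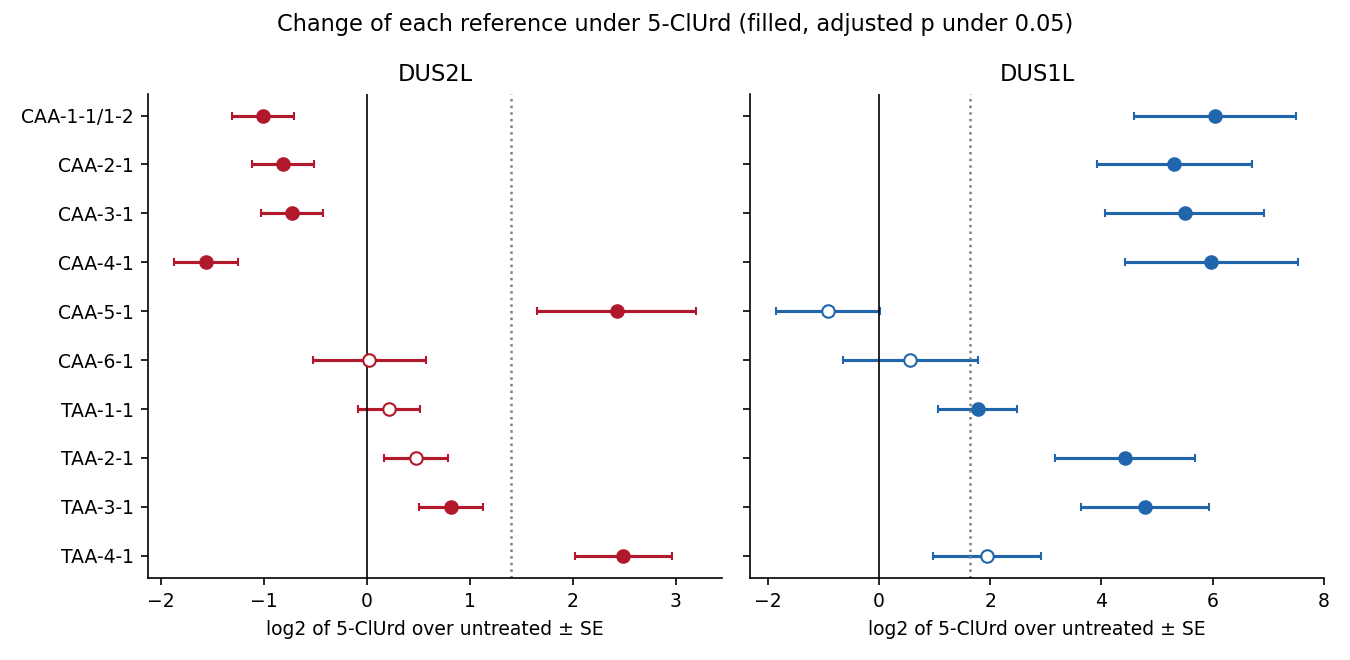
Log2 change of each reference with 5-ClUrd over untreated ± SE, in DUS2L cells (left) and DUS1L cells (right); filled points have an adjusted p under 0.05 and the dotted line is the median of all references (1.39 in DUS2L, 1.64 in DUS1L). CAA-1 to CAA-4 lie below 0 in DUS2L cells, between -1.56 and -0.73, and above 5 in DUS1L cells.

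Position 1 is the first base of a reference at its 5′ end. For references without an intron, 1 to 9 was called the 5′ end, 10 to 26 the D arm, 27 to 44 the anticodon arm, 45 to 57 the variable arm and the rest the T arm and acceptor. For CAA references only the first 9 positions, the D arm and the remainder were separated, because no reference sequence was used here to place an intron. No tRNA sequences are printed for the same reason.

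tRNA-Leu-CAA counts gathered at positions 27 and 38 in both DUS2L groups and in DUS1L cells with 5-ClUrd. In DUS2L cells with 5-ClUrd position 27 held 27.6 ± 2.75% of CAA counts and position 38 held 17.99 ± 0.69%. In untreated DUS2L cells the order was the other way, with 38 at 30.5 ± 1.92% and 27 at 27.1 ± 1.28%. In DUS1L cells with 5-ClUrd, 27 held 37.2 ± 3.51% and 38 held 27.2 ± 8.95% (SD, n = 2 each). The first untreated DUS1L library differed, with 28.4% at position 20 and 22.1% at position 59, both positions where CAA-5-1 was counted.

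The 3′ part of the long CAA references was empty. Over all 8 libraries CAA-1 to CAA-4 had 47614 counts, of which 0 lay past position 50, although their genes are 105 to 108 bases long. The TAA references had 13131 of 59621 counts, 22.0%, from position 58 on, with the last counted position at 74. Whether the reference, the reads or the tRNA sets this limit was not tested.

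tRNA-Leu-TAA counts were spread over more sites. In DUS2L cells with 5-ClUrd position 2 held 20.04 ± 3.39%, 26 held 19.5 ± 1.95%, 68 held 14.7 ± 3.92% and 37 held 14.3%. In untreated DUS2L cells position 26 held 23.3 ± 1.42% and 68 held 21.6 ± 5.84%, while position 2 held 10.1 ± 2.07%. In DUS1L cells with 5-ClUrd the leading position was 68 with 18.7 ± 4.03%, and position 2 held 3.54%. Both DUS2L groups thus had more of their TAA counts at position 2 than treated DUS1L cells.

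**Figure D4:**
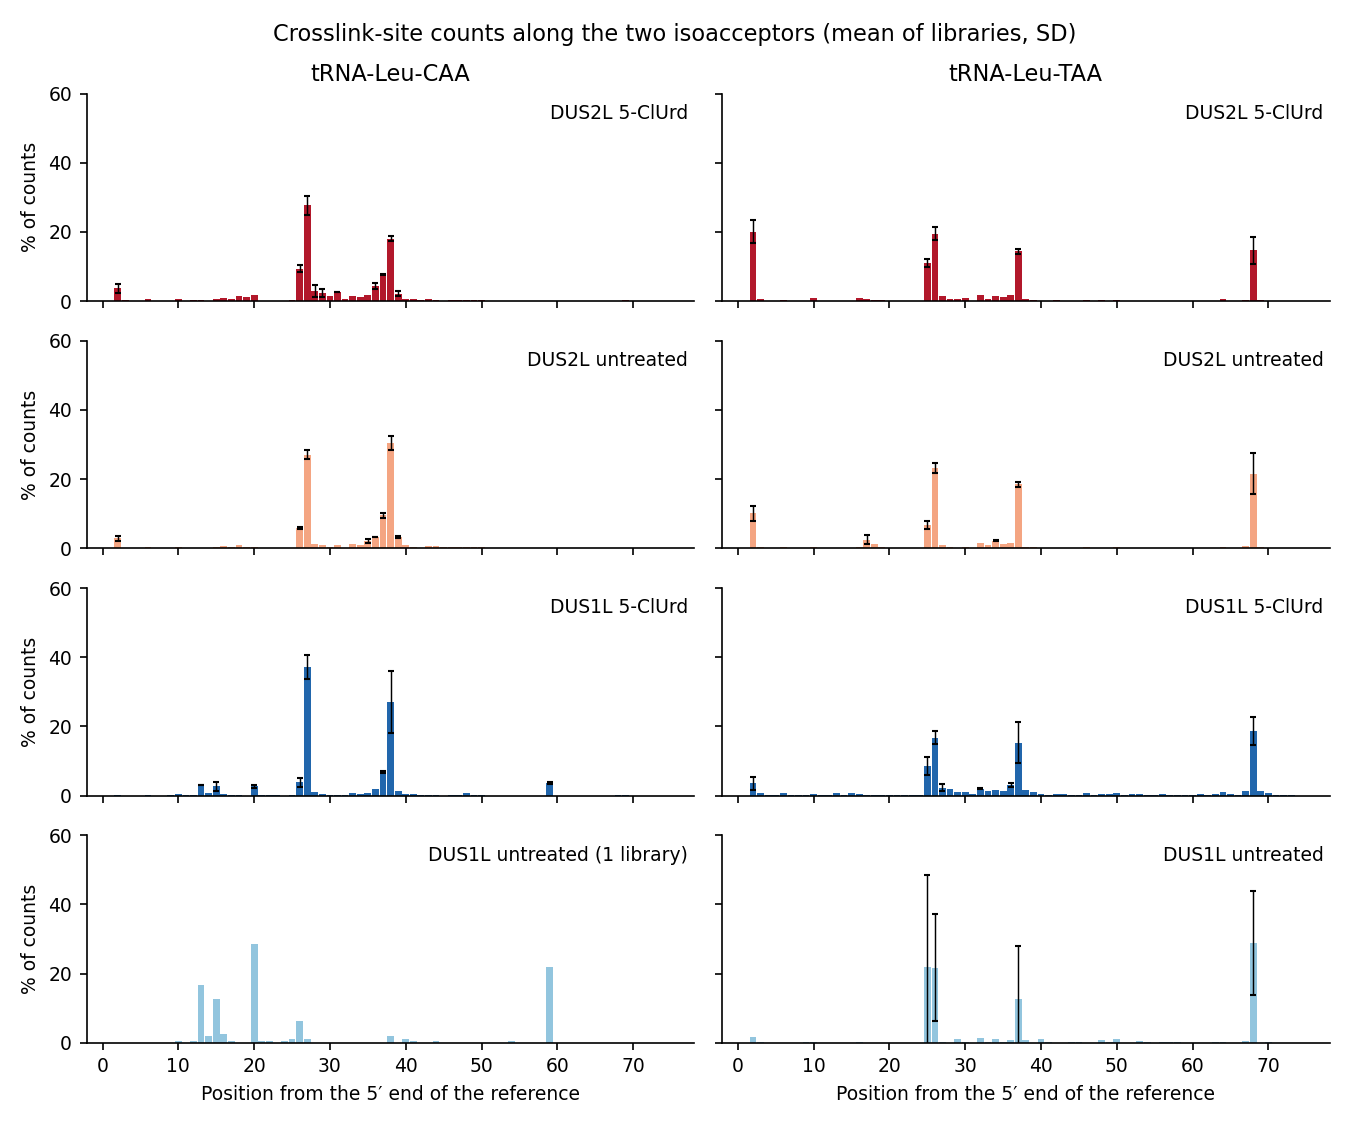
Percentage of each isoacceptor's counts by position from the 5′ end, as the mean of the libraries of a group with SD bars where the mean is above 2%; untreated DUS1L cells have CAA counts in 1 library only. The CAA panels peak at positions 27 and 38 in 3 groups, with 38 at 30.5% in untreated DUS2L cells against 17.99% with 5-ClUrd, and the TAA panels peak at 2, 26, 37 and 68.

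The D arm held 17.2 ± 2.42% of CAA counts in DUS2L cells with 5-ClUrd and 10.00 ± 0.99% in untreated DUS2L cells, a difference of 7.21 percentage points with no overlap (exact permutation p = 0.333, two-sided, the smallest that 2 against 2 libraries can give). It held 15.1 ± 3.13% in treated DUS1L cells, against 72.5% in the first untreated DUS1L library, where CAA-5-1 held 94.6% of CAA counts. Without CAA-5-1 the DUS1L difference, 5-ClUrd minus untreated, was -1.69 points. For TAA the D arm held 34.3 ± 3.83% in treated and 35.2 ± 3.94% in untreated DUS2L cells (exact p = 0.667). In DUS1L cells it held 29.0 ± 2.55% of TAA counts with 5-ClUrd and 14.96% and 73.5% in the untreated libraries, the second of which had 49 counts. These are exact permutation tests over 2 libraries a group (SD, n = 2).

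The TAA share of the summed CAA and TAA counts was 49.9 ± 11.3% in DUS2L cells with 5-ClUrd and 26.2 ± 1.75% in untreated DUS2L cells (SD, n = 2 each, exact permutation p = 0.333). It was 85.5 ± 3.03% in DUS1L cells with 5-ClUrd and 81.3 ± 26.5% in untreated DUS1L cells (exact permutation p = 1). The DUS2L groups did not overlap, and neither did the treated groups of the 2 enzymes, which differed by -35.6 points, DUS2L minus DUS1L (exact p = 0.333).

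Both main CAA positions fell in DUS2L cells, and the balance between them shifted towards position 27. Position 38 of CAA-1 had 943 and 688 counts in DUS2L cells with 5-ClUrd and 984 and 1128 in untreated DUS2L cells, whose libraries were shallower. Position 27 of CAA-1 had 1098 and 922 with 5-ClUrd and 836 and 1121 without. Over CAA-1 to CAA-4, position 27 made up 59.5% and 61.6% of the counts at the 2 positions with 5-ClUrd, against 45.2% and 49.1% without. The groups did not overlap, and the difference itself was not tested. CAA-4-1 showed the widest gap, with 79.1% and 74.8% with 5-ClUrd against 50.7% and 51.0% without. In treated DUS1L cells the values were 65.6% and 50.9%, and the untreated DUS1L libraries had 2 and 4 counts at the 2 positions in all.

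Summed over references, CAA position 38 fell by 1.72 ± 0.17 on the log2 scale in DUS2L cells (adjusted p = 2.22e-20) and position 27 by 0.96 ± 0.17 (adjusted p = 4.9e-07), while position 26 was not called (-0.23, adjusted p = 0.527; edgeR quasi-likelihood over 3582 isoacceptor positions, 39.4% called, 15.5% higher and 23.8% lower). Position 38 took 0.724% and 0.469% of sense counts with 5-ClUrd, against 1.87% and 2.05% without. The SE of such a sum borrows dispersion from other features, so it can understate the spread between these libraries. No sum over references, here or below, was refitted with a library left out. By single sites, 153 of the 236 CAA sites passed the minimum of 10 counts and 14 of these fell while 2 rose, against 17% and 14.9% of the 5140 sites tested (31.9% either way). The 14 included positions 27 and 38 in each of CAA-1, CAA-2-1, CAA-3-1 and CAA-4-1. The 2 that rose were positions 12 and 19 of CAA-5-1.

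Among the sites named by their share of counts, CAA-1 fell by 1.23 at position 27 and by 1.67 at 38 (log2; adjusted p = 2.18e-07 and 1.15e-12, edgeR quasi-likelihood). CAA-3-1 fell by 1.48 at 38 and by 0.71 at 27 (adjusted p = 2.44e-07 and 0.0236). Position 27 fell by 0.69 in CAA-2-1 and by 1.05 in CAA-4-1 (adjusted p = 0.0311 and 0.000801). With TMM factors position 27 lost its call in CAA-2-1, CAA-3-1 and CAA-4-1, and position 38 in CAA-3-1 (log2 between -0.98 and -0.21). TMM factors were estimated anew for each set of features, and their direction differed between sets. In DUS2L cells they raised the median log2 change of sites to 0.65, against 0.16 under total scaling. They lowered that of families to 0.21 against 0.86, and that of references to 0.41 against 1.39. With the DESeq2 Wald test position 27 lost its call in CAA-1 (adjusted p = 0.0789) and in CAA-2-1, CAA-3-1 and CAA-4-1. No site of any reference was called without either untreated DUS2L library (edgeR, 1257 and 1348 sites with an unadjusted p under 0.05), though the 6 named sites stayed below 0.

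The 5′ end of the TAA references rose in DUS2L cells. Position 2 of TAA-1-1 had 842 and 988 counts with 5-ClUrd and 136 and 192 without. Position 2 of TAA-2-1 had 622 and 902 with 5-ClUrd and 84 and 131 without. Position 26 of TAA-1-1 had 1000 and 904 with 5-ClUrd and 372 and 614 without. Position 2 therefore gained on position 26, and positions 1 to 9 made up 18.2% and 24.3% of TAA counts with 5-ClUrd, against 12.6% and 9.13% without. In DUS1L cells they made up 6.87% and 3.60% with 5-ClUrd and 2.05% and 2.04% without.

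Summed over references, TAA position 2 rose by 1.53 ± 0.27 in DUS2L cells (log2, SE; adjusted p = 1.33e-06, edgeR quasi-likelihood) and position 25 by 1.21 ± 0.34 (adjusted p = 0.00318). Positions 26, 37 and 68 were not called, at 0.23, 0.12 and -0.09 (adjusted p = 0.428, 0.72 and 0.797). By single sites, 125 of 270 TAA sites were tested and 11 rose, with 0 lower, the same fit as above giving 14.9% and 17% over all sites. Position 2 was among the 11 in each of the 4 TAA references, by 1.21 ± 0.33 in TAA-1-1 and 1.56 ± 0.37 in TAA-2-1 (adjusted p = 0.00279 and 0.000553). Both lost their call without either untreated DUS2L library (adjusted p from 0.104 to 0.145).

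In DUS1L cells, CAA position 27 had no counts at CAA-1 and CAA-2-1 in either untreated library, against 555 and 216 counts at CAA-1 and 337 and 174 at CAA-2-1 with 5-ClUrd. Set against a floor of 3 counts pooled over both untreated libraries, the pooled share was at least 28.5-fold higher at CAA-1 and at least 18.9-fold higher at CAA-2-1. That floor rests mainly on the deeper first untreated library. In the second treated library the shares were 0.0398% at CAA-1 and 0.0321% at CAA-2-1. Both are under the 0.0407% that 0 counts allow in the second untreated library, so no rise is shown against it. Of 48 CAA sites tested 12 rose and 0 fell, in a comparison that called 34% of 4715 sites, 31.7% higher and 2.31% lower (1495 and 109, or 534 and 143 with TMM factors). Summed over references, CAA positions 27, 37 and 38 rose (adjusted p = 0.0222, 0.0222 and 0.0229, edgeR quasi-likelihood), where 28.3% of 2132 isoacceptor positions were called, 26.8% higher and 1.5% lower. The 12 sites were positions 27 and 38 in 4 references, 37 in 3 and 26 in 1. Only sites that gathered counts under 5-ClUrd could pass the minimum, so the count is a description.

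Of 149 TAA sites tested in DUS1L cells 66 rose and 1 fell, which was position 32 of TAA-4-1. Over all 4715 sites tested there, 31.7% were called higher and 2.31% lower. The untreated DUS1L libraries had 341 and 49 TAA counts, so sites passed the minimum mainly through treated counts. The 66 are therefore a description. Position 2 of TAA-1-1 had 500 and 149 counts with 5-ClUrd and 1 and 1 without, and rose by a fitted 4.69 (log2; adjusted p = 0.0118, edgeR quasi-likelihood), with a pooled ratio of 36.0 (exact interval 9.93 to 298). Position 37 of TAA-1-1 had 1017 and 1007 counts with 5-ClUrd and 31 and 1 without, and rose by 3.01 (adjusted p = 0.0492). Position 68 of TAA-1-1, with 1030 and 1008 counts against 83 and 6, was not called (1.202, adjusted p = 0.368), nor were 25 and 26 (-0.26 and 0.57, adjusted p = 0.868 and 0.703). Without the second untreated library 25 and 26 of TAA-1-1 gave 4.64 and 3.95, and without the first -1.38 and -0.53.

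**Figure D5:**
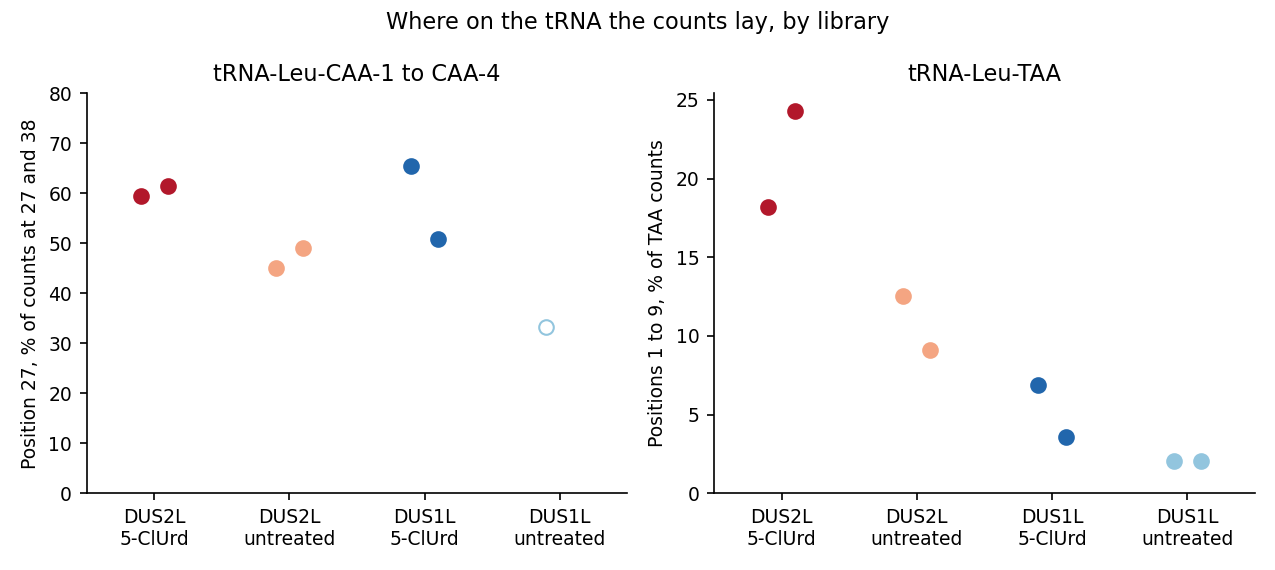
Left, position 27 as a percentage of the counts at positions 27 and 38 of CAA-1 to CAA-4; right, positions 1 to 9 as a percentage of tRNA-Leu-TAA counts; each point is a library, and the open point rests on 6 counts. In DUS2L cells the libraries with 5-ClUrd lie above the untreated ones in both panels, at 59.5% and 61.6% against 45.2% and 49.1% on the left and 18.2% and 24.3% against 12.6% and 9.13% on the right.

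Between treated DUS2L and treated DUS1L cells, the TAA positions called included the 5′ end and the D loop. Position 2 was higher in treated DUS2L cells by 3.15 ± 0.70 (log2, SE; adjusted p = 4.2e-05, edgeR quasi-likelihood over 4424 isoacceptor positions, 41.9% called, 22.9% higher and 19% lower). Position 17 had 94 and 71 counts in treated DUS2L cells and 38 and 10 in treated DUS1L cells, and was higher by 2.77 (adjusted p = 0.0102). Position 18 was likewise higher by 2.77 and position 19 by 2.61 (adjusted p = 0.0134 and 0.0242). Positions 25, 26, 37 and 68 were not called (adjusted p = 0.229, 0.244, 0.498 and 0.7).

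Position 13 of TAA went the opposite way, with 5 and 4 counts in treated DUS2L cells and 167 and 38 in treated DUS1L cells. It was lower in DUS2L by 3.44 (log2 -3.44 ± 1.05, adjusted p = 0.00414, edgeR quasi-likelihood). Position 15 had 15 and 14 counts in treated DUS2L cells and 209 and 58 in treated DUS1L cells, with a change of -2.18 ± 0.95 (adjusted p = 0.0523). The untreated DUS1L libraries had 0 counts at 13, 15, 17, 18 and 19. Untreated DUS2L libraries, which were shallower than the treated ones, had 86 and 70 at position 17. Those were 3.38% and 1.53% of their TAA counts, against 0.849% and 0.562% at position 17 in DUS2L cells with 5-ClUrd. These D-arm positions were singled out after their values were seen.

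By single sites, 182 TAA sites were tested between treated cells and 16 were higher and 9 lower in DUS2L, among 7873 sites of which 52.4% were called, 23.2% higher and 29.2% lower. Position 2 was higher in all 4 TAA references, and position 13 was lower in 3. For CAA, 129 of 162 tested sites were higher in DUS2L and 2 lower, namely position 13 of CAA-2-1 and position 59 of CAA-5-1. The minimum of 10 counts was summed over all 8 libraries, so sites counted only in DUS2L cells could pass it. The 129 are therefore a description. Summed over references, CAA positions 2, 26, 27, 37 and 38 were higher by 7.19, 4.51, 2.77, 3.42 and 2.69.

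Of 70 peaks on the members in the authors' deposited lists, 65 were in sense, and each peak's value equalled the sum of the site counts inside it. Positions 25 to 26 of TAA carried 21 peaks in all 8 libraries. Positions 37 to 38 of CAA carried 11 peaks in 6 libraries and 26 to 27 carried 8 peaks in 3. Positions 13 to 15 of CAA carried 5 peaks in 2 libraries, and the other CAA peaks lay between 16 and 20, at 25 to 26 and between 66 and 70. Untreated DUS1L libraries had 0 CAA peaks, against 8 and 3 in DUS1L cells with 5-ClUrd, and the DUS2L libraries had 7 and 7 with 5-ClUrd and 4 and 3 without.

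The most counted sites bear on these values. The highest site of any reference was between 1061 and 1436 counts in 7 of the libraries despite their different depths, and 555 in the second untreated DUS1L library. Member sites above 500 counts numbered 18 and 16 in DUS2L cells with 5-ClUrd, 3 and 11 in untreated DUS2L cells, 9 and 6 in DUS1L cells with 5-ClUrd and 0 in both untreated DUS1L libraries. They held 53.1% and 53.0% of member counts in treated DUS2L cells and 23.6% and 52.7% in untreated ones. Whether an upper limit on the count of a site acted was not tested.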

How the data were processed

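iCLIP records the site where an RNA was crosslinked or otherwise bound to the tagged protein. The deposited site files give whole-number counts per position and strand of a tRNA or rRNA reference, and the deposited peak files give summed counts per interval. The reads were processed with STAR 2.7.0f and hg38 per the submitters' processing notes. How molecular identifiers, multi-mapping reads and peaks were handled is not stated in those notes or in the labels. The authors' names for the DUS2L site files mention mapping to non-coding RNAs beforehand and those of the DUS1L files do not, so enzyme and processing cannot be told apart.

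From these counts, sense-strand sites were summed by isoacceptor (family), reference, or isoacceptor and position. Features reaching a summed count of 10 in a fit's libraries entered edgeR 4.0.16 (glmQLFit and glmQLFTest, original quasi-likelihood dispersions, R 4.3.3), scaled to total sense counts, with Benjamini-Hochberg adjustment over all features and a threshold of 0.05. Each enzyme's effect was fitted on its 4 libraries, and differences between enzymes on all 8. The fitting code was run on simulated counts with 8-fold changes and the same dispersion for every feature. Such counts lack the unequal spread of the real libraries, so the run checks the code and not the error rates here. Shares were compared by exact permutation of libraries (scipy 1.17.1, Python 3.11.15). Named sites were, for each isoacceptor and enzyme, the 5 with the highest mean share in treated libraries plus the highest untreated site, and likeness was the Pearson r of depth-scaled log2 counts (edgeR cpm, prior count 2) over 8 libraries. The members and lists were chosen with earlier results of these data known. Alternatives were TMM and DESeq2 scaling, the DESeq2 1.42.0 Wald test with its own size factors, minimum counts of 1 and 50, a replicate block, sites above 500 counts left out, both strands, and each library left out. Added after seeing the data were the bias-adjusted quasi-likelihood, the fits of references, and leaving out CAA-5-1. Replicate libraries of a group differed by more than counting noise at member sites (chi-square per degree of freedom 15.5, 4.45, 10.0 and 17.0 for treated and untreated DUS2L and treated and untreated DUS1L), so none was counted as a duplicate. Precision follows from 7369 to 824657 sense counts per library.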

Additional observations from a re-analysis of the deposited data

Results flagged for a closer look

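The effect of 5-ClUrd differed between the enzymes, by a test of the difference itself (edgeR quasi-likelihood, Benjamini-Hochberg adjusted), for 6 references: CAA-1 at -7.03, CAA-2-1 at -6.10, CAA-3-1 at -6.22, CAA-4-1 at -7.52, TAA-2-1 at -4.14 and TAA-3-1 at -3.97 on the log2 scale, DUS2L minus DUS1L. The untreated DUS1L libraries hold few counts of these references, so the fitted sizes rest on few counts. Of all 244 references tested, 17.6% were called for this difference, 6.56% higher and 11.1% lower. Near-identical references within an isoacceptor are not independent cases.

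At 6 named CAA sites every library with 5-ClUrd lay below the untreated ones in DUS2L cells, as a share of sense counts, while in DUS1L cells the measured shares lay above those of the untreated libraries. The difference was not tested at the level of sites. How many of all sites separated in this way was not counted, and sites on near-identical references are not independent cases. At 5 of the 6 named sites a treated DUS1L share was under the 0.0407% that 0 counts allow in the second untreated DUS1L library, so no rise is shown against that library. The DUS2L log2 changes were -1.23 and -1.67 at positions 27 and 38 of CAA-1, -0.69 at position 27 of CAA-2-1, -0.71 and -1.48 at positions 27 and 38 of CAA-3-1, and -1.05 at position 27 of CAA-4-1. The D-arm share of tRNA-Leu-CAA also moved in opposite directions, by 7.21 points in DUS2L cells and -57.5 points in DUS1L cells, with 5-ClUrd minus untreated; that difference was not tested and rests on 1 untreated DUS1L library, where CAA-5-1 held 94.6% of CAA counts. The DUS1L value was -1.69 points without CAA-5-1 and -29.8 with sites above 500 counts left out.

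Antisense counts entered only the alternative that counted both strands. For 2 references both treated libraries of an enzyme had more than 3 antisense counts, at shares above both untreated ones. CAA-5-1 had more antisense counts, 326 and 45 in DUS1L cells with 5-ClUrd and 79 and 0 in untreated ones, with overlapping shares. CAA-6-1 had 5 and 13 antisense counts in DUS2L cells with 5-ClUrd and 1 and 1 in untreated DUS2L cells. These were 0.00134% and 0.00354% of all counts, against 0.000766% and 0.000579%, a difference that rests on few counts and was not tested. TAA-3-1 had 12 and 6 in DUS1L cells with 5-ClUrd and 0 and 0 in untreated DUS1L cells. Those 12 and 6 counts were 0.00145% and 0.00110% of all counts, under what 0 counts allow in either untreated DUS1L library, so no rise is shown for TAA-3-1.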

How the results depend on the processing

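Of 1094 recomputed values of single isoacceptors, references and sites, 853 kept direction and side of the threshold, 50 passed it newly, 143 lost it and 48 reversed; of 232 counts and shares, 175, 8, 36 and 13 did. The cause was not tested. The depth of the second untreated DUS1L library and 2 libraries a group limit all DUS1L values.

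Counts of calls moved as follows. With sites above 500 counts left out, DUS1L families went to 4 and DUS1L references to 0, against 13 and 86. One fit of all 8 libraries gave 27 DUS2L and 27 DUS1L families, against 42 and 13, and the bias-adjusted quasi-likelihood 784 DUS2L sites and 26 DUS1L families. TMM factors gave 648 DUS2L sites, 677 DUS1L sites and 53 DUS1L references. The DESeq2 Wald test gave 1074 DUS2L, 97 DUS1L and 2037 treated sites, and 43 DUS1L references. Minimum counts of 1 and 50 gave 398 and 784 DUS2L sites. Summing references by position gave 604 DUS1L and 1853 treated positions. The reported counts of sites were 1639 in DUS2L, 1604 in DUS1L and 4122 between treated cells.

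Leaving out each library, with the lone library of a group assumed to vary like the other groups, gave 26 to 46 DUS2L, 1 to 35 DUS1L, 5 to 28 difference, 29 to 44 treated and 44 to 52 untreated families. It gave 72 to 164 DUS2L, 0 to 130 DUS1L, 27 to 85 difference and 128 to 172 treated references, and 0 to 1047 DUS2L, 179 to 1864 DUS1L and 2338 to 4294 treated sites. The lowest DUS1L and difference family counts came without the second treated DUS1L library.

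Replicate numbers were not shown to pair the libraries: deviations of same-numbered libraries from their group means correlated at 0.264 in DUS2L and 0.0887 in DUS1L over 55 families. With the replicate block, tRNA-Leu-CAA missed the threshold in DUS2L cells (adjusted p = 0.0516) and passed it in DUS1L cells (2.72, adjusted p = 0.0437), DUS2L sites called were 904 and DUS1L references 57. Families called were 38 in DUS2L, 19 in DUS1L and 17 for the difference with the replicate block.

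Reversed shares, in percentage points, were the D arm of CAA between treated enzymes (-15.5 with sites above 500 counts left out, -7.41 with the window to position 27, -0.0718 to 4.36 leaving out libraries). The D arm of TAA reversed in DUS2L cells (1.48, 4.397 with each site counted once, -3.73 to 1.84) and in DUS1L cells (12.98, 4.74, -44.5 to 14.05). The TAA share reversed in DUS1L cells (-17.2 with each site once, -11.4 without CAA-5-1, -14.5 to 22.9).

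Reversed log2 changes in DUS2L cells were TAA with TMM factors (-0.16), DESeq2 size factors (-0.26) and the Wald test (-0.26). Of references there, CAA-6-1, TAA-1-1, TAA-2-1 and TAA-3-1 reversed with TMM factors (-0.995, -0.78, -0.52, -0.19) and the Wald test (-1.09, -0.87, -0.61, -0.28), CAA-6-1 with the replicate block (-0.15), and CAA-6-1 and TAA-1-1 leaving out libraries (-0.96 to 0.59, -7.02e-05 to 0.47). Of sites, TAA-1-1 reversed at 68, 37 and 26 with TMM factors (0.14, 0.36, 0.18), at 37 with the Wald test (0.18) and at 68 and 37 leaving out libraries (-0.71 to 0.18, -0.36 to 0.17), as did TAA-2-1 at 68 (-0.52 to 0.77) and CAA-5-1 at 20 (-0.10 to 2.51).

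In DUS1L cells CAA reversed with sites above 500 counts left out (-0.31). CAA-6-1 reversed with TMM factors (-0.33), the Wald test (-1.06) and sites above 500 left out (-0.0704), and CAA-5-1 leaving out libraries (-1.63 to 10.62). TAA-1-1 at 25 reversed with the replicate block (1.52) and leaving out libraries (-1.38 to 4.64), as did TAA-1-1 at 26 (-0.53 to 3.95) and CAA-5-1 at 20 (-2.08 to 8.44).

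For the difference between enzymes, TAA-4-1 reversed with TMM factors (-0.36) and CAA-6-1 with sites above 500 left out (0.14); leaving out libraries gave CAA-5-1 -7.79 to 4.17, TAA-4-1 -10.25 to 1.23 and CAA-6-1 -5.74 to 0.0401. Between treated cells TAA-4-1 reversed with the Wald test (0.79) and sites above 500 left out (0.23), TAA-1-1 with the same (-0.37) and CAA-5-1 with the replicate block (-0.20); leaving out libraries gave TAA-4-1 -0.54 to 0.0910 and CAA-5-1 -1.29 to 0.95. There CAA-5-1 at 20 gave 1.27 with the Wald test and -2.11 to 0.51 leaving out libraries, and TAA-2-1 at 68 -0.28 to 0.76.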
